A study of Mus musculus with 14 samples.

Results

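The genes of polyamine metabolism were read from one-color expression arrays of mouse gut tissue, gut adenomas and a colon carcinoma line. The gene set held 9 names, and its members were the probes whose gene name on the array equals one of them: Odc1, Srm, Sms, Sat1, Amd1, Azin1, Oaz1, Smox and Paox. Of these 9 genes, 8 had a probe by that name, with 19 probes among 55681 that were not controls. No probe carried the name Amd1. The nearly identical gene Amd2 had 3 probes, 2 of which also list the Amd1 transcript, and it is given below as a gene outside the set.

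The study compared healthy gut, early tumors and a tumor cell line on 14 arrays, with 1 array per sample. Whole small intestine of C57BL/6J mice was measured on 3 arrays and colon, also labelled C57BL/6J, on 3. Macroscopic adenomas of APCmin/+ mice, which carry a truncating mutation in 1 copy of the Apc tumor suppressor gene, gave 3 arrays, and non-tumor tissue beside adenomas gave 2. CT26, a colon carcinoma cell line from the BALB/c strain, gave 3 arrays, so that its strain differs from that of the colon it was compared with. By the sample list of the study, all adenoma and adjacent pieces came from 1 APCmin/+ mouse, the small intestine samples from 3 mice, and 1 of the colon samples from an APCmin/+ mouse against its label. The spread between adenoma arrays is therefore that between pieces of tissue, and the p-values of comparisons with them measure no spread of adenomas between mice. The CT26 arrays are replicates of 1 cell line, so p-values of comparisons with them measure no spread between lines or tumors. All tissues were whole, so fewer cells of a type and less RNA per cell cannot be told apart.

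Polyamines (putrescine, spermidine and spermine) are small positively charged molecules that bind nucleic acids and are needed for growth, and the fast-renewing gut epithelium depends on them. Ornithine decarboxylase (Odc1) makes putrescine from ornithine, the first step of synthesis and a known transcriptional target of Myc. Spermidine synthase (Srm) and spermine synthase (Sms) then add aminopropyl groups, which S-adenosylmethionine decarboxylase (Amd1) supplies. The acetyltransferase Sat1 marks polyamines for export or for oxidation back to shorter ones by Paox, while Smox oxidizes spermine directly and releases hydrogen peroxide. Antizyme (Oaz1) binds ornithine decarboxylase and takes it to the proteasome, and the antizyme inhibitor Azin1, an inactive relative of the enzyme, captures antizyme. Several of these proteins are set by translation and turnover, which arrays of mRNA do not read.

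The signals come from probes of 60 bases. Those below, of the genes with the main differences, are shown because each has a reading frame without a stop along its whole length. They are not the brightest probes from which the genes are read, but second ones that gave the same calls where those are described. The first is a probe of Odc1 (A_52_P436238) on chr12:17554799-17554858, the second a probe of Srm (A_55_P2002376) on chr4:147968254-147968313 and the third a probe of Smox (A_66_P107703) on chr2:131347853-131347912, all on the plus strand of NCBI37/mm9, the build to which the scanner files refer. Whether each lies in coding sequence or in a UTR was not looked up, since no annotation of that build was used here.
Odc1: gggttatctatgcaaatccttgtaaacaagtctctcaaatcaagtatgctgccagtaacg
Srm: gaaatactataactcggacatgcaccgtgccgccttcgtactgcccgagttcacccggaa
Smox: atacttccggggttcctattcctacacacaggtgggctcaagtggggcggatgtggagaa

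Odc1 had 4 probes, and A_55_P1995173 and A_55_P2035102 among them share 55 bases that differ at 1 position. The stretch around that base is shown because it is the only difference between the designs over the shared part, T9G counted from the 5′ end of the stretch, in capitals.
A_55_P1995173: ccagaagcTtatgttgtgacc
A_55_P2035102: ccagaagcGtatgttgtgacc
Overlapping probes share their target, so that they are no independent measurements: the Oaz1 probes share 60 bases and the Paox probes 54. All 266 values of the 19 probes on the 14 arrays were well above background, and none was saturated. Below, each gene is read from its brightest probe, and a value is its scaled log2 signal, the log2 of the background-subtracted signal minus the 75th percentile of its array.

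Before the comparisons, arrays that stand apart are named. Colon replicate 3 went against its label in its enterocyte genes: 10 genes of small intestine enterocytes had a mean scaled log2 signal of 5.99 on it, against -1.88 and -1.89 on the other colon arrays and 6.53 to 8.18 on those of small intestine. The mean of 8 colonocyte genes on it was 2.49, between small intestine (0.91 to 1.67) and the other colon arrays (4.90 and 5.39). That of 5 B cell genes was 2.70, above small intestine (-3.82 to -3.03) and also above the other colon arrays (-0.14 and 0.28). For 5 Paneth cell genes it was 4.97, against -0.71 and 0.70 on the other colon arrays and 7.33 to 8.14 in small intestine. The correlation of its signals was 0.951 to 0.969 with small intestine arrays and 0.938 and 0.934 with the other colon arrays. Colon replicate 3 also had the lowest share of probes well above background, 46.8%, where the highest was 58.2%. Calls that rest on colon are given with and without it. In CT26 cells, 5 of 8 epithelial markers (Epcam, Cdh1, Krt19, Vil1 and Cdx1) were not well above background on any array, and the mean of the list was -5.55 to -5.39, against 6.63 to 7.32 on colon arrays. The arrays lay on 2 slides with every group on both, and the differences within each slide stand beside the calls.

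**Figure D1:**
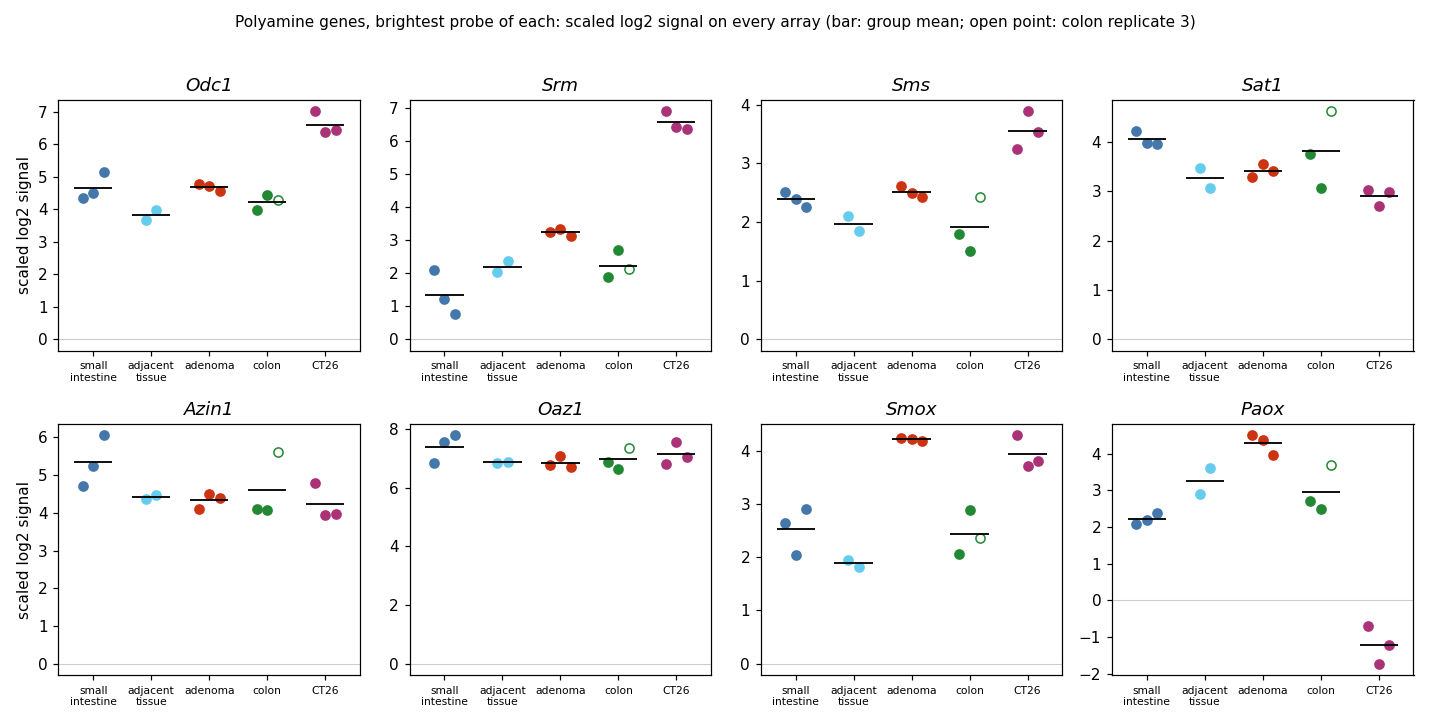
Scaled log2 signal (vertical axis) of the brightest probe of each of 8 polyamine genes on the 14 arrays, by group, with a bar for the group mean and an open point for colon replicate 3. CT26 lies above every other array for Odc1, Srm and Sms and below every other array for Paox, and the adenoma arrays of Smox lie above all small intestine, adjacent and colon arrays.

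Genes counted as overexpressed or underexpressed had a log2 difference of at least 1.2 in size together with a limma adjusted p of at most 0.01. In adenomas, 3 of the 8 genes were overexpressed against small intestine (Srm, Smox and Paox) and 0 underexpressed, where 21.9% of all 29532 probes tested passed in either direction. Against adjacent tissue 1 of 8 passed (Smox, higher), beside 3.97% of 29726 probes. In CT26, 4 of 8 genes were overexpressed against colon (Odc1, Srm, Sms and Smox) and 1 underexpressed (Paox), beside 36.4% of 29387 probes, and without colon replicate 3 these were 3 (Odc1, Srm and Sms) and 1 (Paox), beside 39% of probes. For adenomas against colon 1 of 8 passed (Smox), beside 3.43% of 29165 probes, and 2 without colon replicate 3 (Smox and Paox), beside 11.2%. With 8 genes a single call is already a larger share than the background of the comparisons with adjacent tissue and colon, genes were read from their brightest probe and the background from all probes, and no test of the set was made. The median log2 difference of the 8 genes was 0.07 between adenomas and small intestine, 0.69 between adenomas and adjacent tissue and 0.83 between CT26 and colon, where that of all probes tested was -0.15, -0.05 and 0.37.

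**Figure D2:**
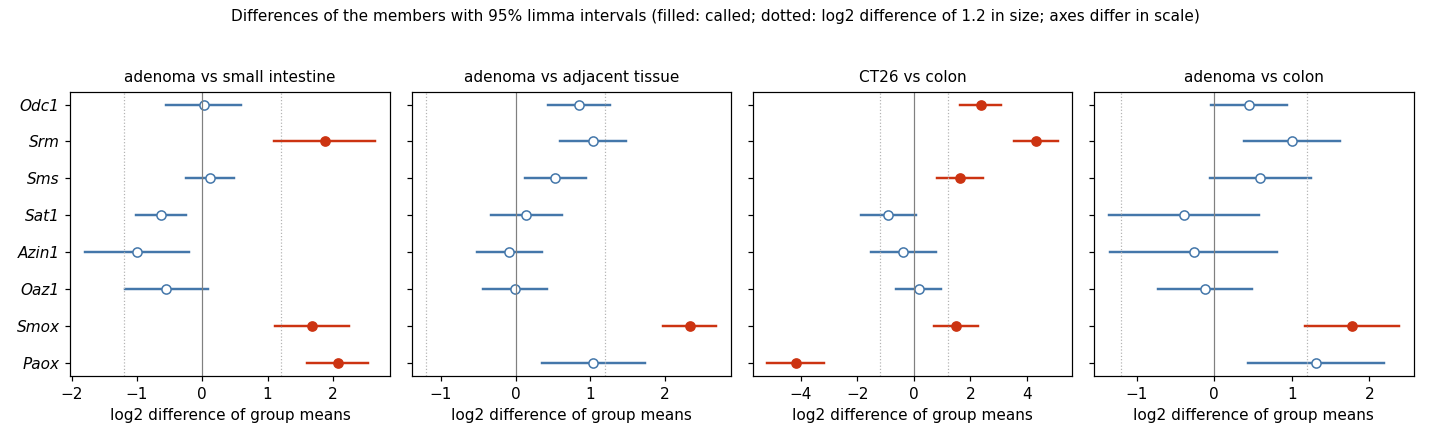
Difference of group means on the log2 scale (horizontal axis) for the 8 genes in 4 comparisons, with 95% intervals from limma. Filled red points passed both thresholds, and dotted lines mark a difference of 1.2 in size. Smox is filled in each panel, and Paox lies to the right in adenomas and far to the left in CT26.

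Of the enzymes of synthesis, ornithine decarboxylase (Odc1) had its highest signal in CT26 cells. Its values there were 7.01, 6.36 and 6.42, while they were 3.97, 4.44 and 4.28 on the colon arrays. Small intestine had 4.33, 4.5 and 5.15, adjacent tissue 3.68 and 3.97, and adenomas 4.77, 4.70 and 4.57. CT26 arrays thus lay above all tissue arrays, the adenoma arrays lay within the range of small intestine, and both adjacent arrays lay below every adenoma and small intestine array. The log2 difference between CT26 and colon was 2.37 (standard error 0.312, limma adjusted p = 0.000581), or 5.16-fold, and all 4 probes passed with 5.16- to 6.68-fold, the one printed above with 5.62-fold. It was 2.39 (adjusted p = 0.000905) without colon replicate 3, and 2.27 and 2.24 within the slides. Between adenomas and small intestine it was 0.02, with a 95% interval from -0.55 to 0.59. Between adenomas and adjacent tissue Odc1 differed by 0.86 (interval 0.44 to 1.27, limma adjusted p = 0.0241), which did not pass.

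Spermidine synthase (Srm) had the largest overexpression of the set, in CT26. It was measured at 2.08, 1.21 and 0.77 in small intestine, 2.02 and 2.37 in adjacent tissue, and 3.23, 3.34 and 3.13 in adenomas. Colon arrays had 1.88, 2.69 and 2.12, and CT26 arrays 6.89, 6.42 and 6.34. The adenoma arrays lay above all normal tissue arrays, and the CT26 arrays lay above the adenomas without overlap. Against small intestine Srm was 3.67-fold higher in adenomas (log2 difference 1.88, standard error 0.327, limma adjusted p = 0.00359), and its second probe, printed above, gave 3.75-fold. The difference was 1.76 and 2.12 within the slides (adjusted p = 0.00934 with slide as a block). This call was lost without small intestine replicate 2 (adjusted p = 0.0149) or without any 1 of the adenoma arrays (0.0139 to 0.0186), while the difference stayed between 1.81 and 1.93. In CT26 Srm was 20-fold higher than in colon (log2 difference 4.32, standard error 0.333, limma adjusted p = 4e-05) and 21.8-fold by the second probe. It was 19.2-fold higher without colon replicate 3 and differed by 3.93 and 4.42 within the slides. Between adenomas and adjacent tissue the difference of 1.04 (interval 0.60 to 1.48, limma adjusted p = 0.0169) did not pass.

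Srm moved beside markers of proliferation. The mean of 10 such genes was 1.14 to 2.41 on small intestine arrays, 2.44 to 2.61 on adjacent, 3.39 to 3.57 on adenoma, 2.39 to 2.66 on colon and 4.59 to 4.94 on CT26 arrays, with all 10 well above background on each. Of these genes 8 were overexpressed in adenomas against small intestine, beside 21.9% of all probes called in either direction, and 8 in CT26 against colon, beside 36.4% (9 without colon replicate 3, beside 39%). Their part in the result was not tested.

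Spermine synthase (Sms), the next enzyme, had 2.52, 2.39 and 2.26 in small intestine and 2.61, 2.49 and 2.43 in adenomas. Adjacent tissue had 2.11 and 1.84. In colon it had 1.80, 1.51 and, on replicate 3, 2.42, and in CT26 3.24, 3.89 and 3.53. Adenomas overlapped small intestine, with a difference of 0.12 (interval -0.26 to 0.49), while CT26 lay above all tissues. Sms was 3.12-fold higher in CT26 than in colon (log2 difference 1.64, standard error 0.348, limma adjusted p = 0.00557) and 3.72-fold without colon replicate 3 (adjusted p = 0.00206), with 1.87 and 1.78 within the slides. The call was lost without colon replicate 1 (adjusted p = 0.0225), colon replicate 2 (0.0219) or any CT26 array (0.011 to 0.0256), with quantile normalization (difference 1.21, adjusted p = 0.0178), in the authors' table (1.14, 0.0119) and without a filter on dim probes (0.0162). The probes of Sms disagreed. A second one (A_55_P2025911) was overexpressed too, by 1.95, but the third (A_55_P2115995) differed by 0.10 (interval -1.01 to 1.21) between CT26 and colon, and gave 1.0 (limma adjusted p = 0.00586) between adenomas and small intestine, under the fold threshold. On CT26 replicate 1 the third probe read -0.58 where replicates 2 and 3 had 1.09 and 1.01. The correlation between Sms probes over the arrays was 0.234 to 0.976, whereas it was 0.97 to 0.994 for Odc1 and 0.999 for Srm.

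**Figure D3:**
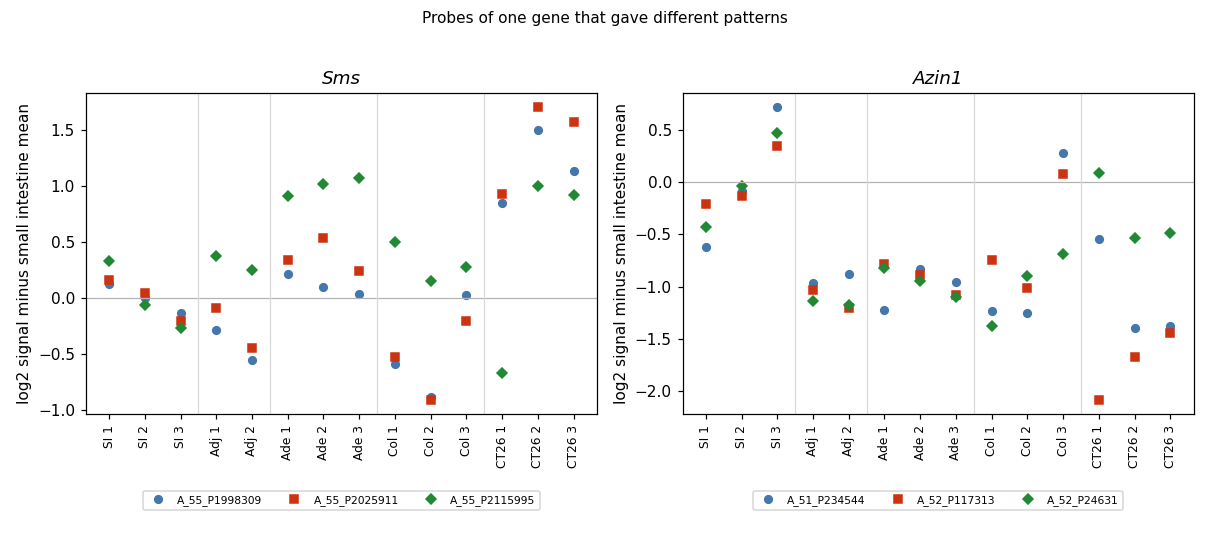
Log2 signal of each probe of Sms and Azin1 minus its mean over small intestine (vertical axis) on the 14 arrays (SI small intestine, Adj adjacent tissue, Ade adenoma, Col colon). The third Sms probe, in green, sits above the others in adenomas and at -0.67 on the first CT26 array, and the Azin1 probes part in CT26.

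For the decarboxylase that supplies the aminopropyl group, the brightest probe named Amd2, which also lists the Amd1 transcript, cannot tell the genes apart. It had 3.25, 2.90 and 2.60 in small intestine, 3.20 and 3.44 in adjacent tissue, 4.21, 3.79 and 4.17 in adenomas, 3.94, 4.2 and 3.96 in colon and 5.41, 4.71 and 4.47 in CT26. Adenomas and colon were each above every small intestine array. The difference between adenomas and small intestine was 1.14 (standard error 0.224, limma adjusted p = 0.0057), under the fold threshold. It was 1.13 (limma adjusted p = 0.00423) by the other probe that lists Amd1, also under the fold threshold. By the probe that does not list Amd1 it was 1.37 (limma adjusted p = 0.00344), which passed. That probe lies at chr10:40008676-40008735, between the other 2 on the same strand (starts 40007295 and 40009136). Whether it reads Amd1, Amd2 or both was not tested. CT26 exceeded colon by 0.83 (adjusted p = 0.069), or 0.80 without colon replicate 3, and did not pass.

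The regulators of ornithine decarboxylase did not pass in any of the 6 comparisons by their brightest probes. Antizyme inhibitor (Azin1) had 4.71, 5.25 and 6.05 in small intestine, 4.37 and 4.46 in adjacent tissue and 4.11, 4.5 and 4.38 in adenomas. Colon had 4.10, 4.08 and, on replicate 3, 5.61, and CT26 4.79, 3.94 and 3.96. All adenoma and adjacent arrays lay below all small intestine arrays. The difference between adenomas and small intestine was -1.01 (interval -1.8 to -0.21, limma adjusted p = 0.041), and -0.92 and -0.96 by the other probes. Without small intestine replicate 1 it was -1.32 (adjusted p = 0.00861), past both thresholds. In CT26 against colon the Azin1 probes gave -0.37, -1.17 and 0.68, so that they had no common direction, and the brightest one turned to 0.14 without colon replicate 3.

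Antizyme (Oaz1) varied least of the set over group means. Its means, each ± SD, were 7.40 ± 0.49 (n = 3) for small intestine, 6.86 ± 0.03 (n = 2) for adjacent tissue, 6.85 ± 0.19 (n = 3) for adenomas, 6.97 ± 0.37 (n = 3) for colon and 7.14 ± 0.39 (n = 3) for CT26. In the order of these means, each group overlapped with the next. The difference between adenomas and small intestine was -0.55 (interval -1.18 to 0.08, limma adjusted p = 0.122). Between CT26 and colon it was 0.17 (interval -0.62 to 0.96), and -0.36 with quantile normalization.

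Among the enzymes that break polyamines down, the acetyltransferase Sat1, with 1 probe, had its highest mean in small intestine and its lowest in CT26. It was measured at 4.21, 3.98 and 3.96 in small intestine, 3.48 and 3.06 in adjacent tissue, 3.29, 3.55 and 3.41 in adenomas and 3.03, 2.70 and 2.98 in CT26. Colon had 3.75, 3.06 and, on replicate 3, 4.62, the widest spread of any group. Adenoma and adjacent arrays were each below all small intestine arrays. Against small intestine the difference in adenomas was -0.64 (interval -1.02 to -0.25, limma adjusted p = 0.0161) and did not pass. In CT26 against colon it was -0.90 (interval -1.88 to 0.08, adjusted p = 0.11) and -0.50 (adjusted p = 0.231) without colon replicate 3.

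Spermine oxidase (Smox) was the gene of the set that passed in all 3 comparisons of adenomas. Its values were 4.25, 4.22 and 4.19 in adenomas, 2.65, 2.05 and 2.91 in small intestine, and 1.95 and 1.82 in adjacent tissue. Colon arrays had 2.07, 2.88 and 2.37, and CT26 arrays 4.29, 3.72 and 3.81. Adenoma and CT26 arrays overlapped with each other and lay above every array of normal tissue. Against small intestine Smox was 3.21-fold higher in adenomas (log2 difference 1.68, standard error 0.238, limma adjusted p = 0.00156), with 1.44 and 2.17 within the slides. Against adjacent tissue it was 5.04-fold higher (2.34, standard error 0.145, limma adjusted p = 0.00197), with 2.26 and 2.41 within the slides. The second probe, printed above, gave 3.01- and 4.89-fold. The call against adjacent tissue was lost without any 1 of the adenoma arrays (adjusted p from 0.0135 to 0.0313) at a difference of 2.32 to 2.35 and without a filter on dim probes (0.0123), and the call against small intestine was kept in each case. Against colon it was 3.43-fold higher in adenomas (1.78, limma adjusted p = 0.00957), or 3.35-fold without colon replicate 3 (adjusted p = 0.00689). That call was lost with slide as a block (adjusted p = 0.0276, with 1.34 and 2.0 within the slides), without any adenoma array (0.055 to 0.0621), without colon replicate 1 (0.0275), with quantile normalization (0.0129) and without a filter on dim probes (0.0313).

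In CT26, Smox was 2.82-fold higher than in colon (1.5, standard error 0.333, limma adjusted p = 0.00694). It was 2.76-fold higher without colon replicate 3, where it no longer passed (adjusted p = 0.0118), and 1.17 and 1.5 on the log2 scale within the slides (adjusted p = 0.0188 with slide as a block). The call was also lost without colon replicate 1 (0.0302) or any CT26 array (0.0185 to 0.0243) and with quantile normalization, where the difference was 1.02 (0.0321), in the authors' table (1.13, 0.0114) and without a filter on dim probes (0.0212).

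The acetylpolyamine oxidase Paox differed in opposite directions between the tumor samples. It had 2.07, 2.18 and 2.39 in small intestine, 2.89 and 3.60 in adjacent tissue and 4.5, 4.39 and 3.97 in adenomas. Colon had 2.71, 2.49 and, on replicate 3, 3.70, and CT26 -0.69, -1.73 and -1.22. Small intestine, adjacent tissue and adenomas followed each other without overlap, and CT26 lay below all tissue arrays. In adenomas Paox exceeded small intestine 4.21-fold (log2 difference 2.07, standard error 0.198, limma adjusted p = 0.000347), with 2.01 and 2.21 within the slides. It was 18.2-fold lower in CT26 than in colon (-4.18, standard error 0.43, limma adjusted p = 0.00017) and 14.1-fold lower without colon replicate 3, with -3.45 and -4.94 within the slides. The second probe, which shares most of its bases, gave 4.11- and 19.2-fold. Between adenomas and adjacent tissue the difference was 1.04 (interval 0.36 to 1.73, adjusted p = 0.0506). Between adenomas and colon it was 1.32 (adjusted p = 0.0671), and 1.68 (adjusted p = 0.00402, past both thresholds) without colon replicate 3. Of the epithelial markers, all 8 were well above background on every tissue array, beside the low levels in CT26 given above. Their part in the result in CT26 was not tested.

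A call in adenomas and none in CT26, or the reverse, does not show a difference between them, so the difference of the tumor comparisons was itself tested with limma. It passed for 4 of the 8 genes, beside 30.2% of 31923 probes, and for the same 4 genes without colon replicate 3, beside 35.2%. Odc1, Srm and Sms differed more from normal tissue in CT26, with a difference of differences of -2.35 (standard error 0.386, adjusted p = 0.000562), -2.44 (0.479, 0.00177) and -1.53 (0.374, 0.00644). For Paox it was 6.26 (0.494, 2.24e-06). Smox had 0.18 (0.407, adjusted p = 0.739) and Sat1 0.27 (0.468, 0.671), neither past the thresholds. The adenoma comparison is with small intestine and that of CT26 with colon, and tissue, strain and culture change together between them, so these cannot be told apart.

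**Figure D4:**
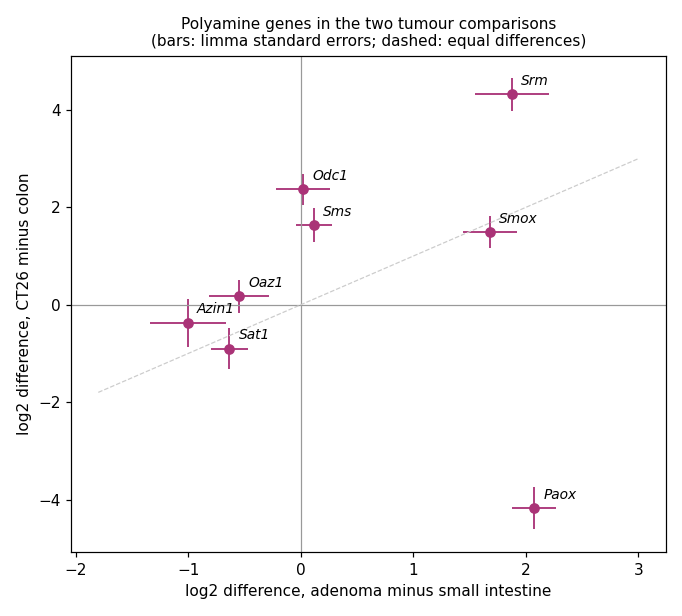
Log2 difference between adenomas and small intestine (horizontal axis) against that between CT26 and colon (vertical axis) for the 8 genes, with limma standard errors as bars and a dashed line of equal differences. Odc1, Srm and Sms lie above the line, Smox and Sat1 near it, and Paox at 2.07 and -4.18. Each gene is shown by its brightest probe.

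Among normal tissues no polyamine gene passed. Between adjacent tissue and small intestine limma called 0 of 8 genes, beside 0.00694% of 28824 probes, while 3 of them (Odc1, Sat1 and Paox) and 8749 of all probes had an unadjusted p under 0.05. Odc1, Sms, Sat1, Azin1 and Smox were lower on both adjacent arrays than on all small intestine arrays, with log2 differences from -0.92 to -0.42. Paox was higher there by 1.03, also without overlap. These differences are all under the fold threshold of 1.2. The share of all probes without overlap was not counted, so this is no result about the set. The simulated fit, in which 200 probes changed, recovered 2% of changes of 2 and 55% of changes of 4 on the log2 scale here. It took the spread of each probe from these few arrays, so the shares are only a rough guide to power. Between colon and small intestine 0 of 8 genes passed and 0 had an unadjusted p under 0.05, beside 0.00733% of 27287 probes called. Without colon replicate 3, 0 of 8 passed as well, beside 6.95%, and the largest difference was that of Azin1, -1.25 (adjusted p = 0.0731).

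A list of 34 related genes, arranged by role, extends the pathway, and 32 of them had a probe (Oaz2 and Slc18b1 had none by name). Of 29 tested between adenomas and small intestine, 5 were overexpressed and 7 underexpressed, beside 21.9% of all probes called in either direction. Of 27 tested between CT26 and colon, 10 were overexpressed and 5 underexpressed, beside 36.4% of probes. Without colon replicate 3 these were 10 and 5 of 28, beside 39%, when Arg1 passed and Azin2 did not. Between adenomas and adjacent tissue 1 was higher and 4 were lower of 29, beside 3.97%. No related gene was called by limma between adjacent tissue and small intestine (8 with an unadjusted p under 0.05, as had 8749 of 28824 probes), between colon and small intestine (13, and 6413 of 27287 probes) or between adenomas and colon (12, and 8269 of 29165 probes). Without colon replicate 3 the last of these gave 4 higher and 1 lower of 29, beside 11.2%, and colon against small intestine 0 higher and 6 lower of 29, beside 6.95%.

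Of the roles, ornithine metabolism had the largest number of genes that passed between adenomas and small intestine, with 1 higher and 4 lower of 6. Beside this, 21.9% of all probes were called in either direction. The breakdown and regulator roles, with 1 gene each, had that gene called too. The role is described first because of its count, and no test of it was made. Not all of the ornithine genes supply ornithine, since Otc, below, uses it. Arginase 1 (Arg1), which releases ornithine from arginine, had -1.07, -0.88 and -0.85 in adenomas and -4.49, -4.82 and -5.13 in small intestine, where 1 of 3 arrays was well above background. The fitted difference in adenomas was 3.88 (limma adjusted p = 6.96e-05), in which the signal on the other 2 small intestine arrays was not well above background. Its mitochondrial relative Arg2 was 5.91-fold lower, ornithine transcarbamylase (Otc) 9.25-fold lower, ornithine aminotransferase (Oat) 2.86-fold lower and Aldh18a1, which makes the precursor of ornithine and proline from glutamate, 2.69-fold lower. Otc and Arg2 were also lower in adenomas than in adjacent tissue, 5.25- and 3.72-fold. Values of cell type markers stand beside these. The mean of 5 genes of neutrophils and inflammatory monocytes was 0.01 to 0.32 on adenoma arrays and -3.43 to -2.88 on those of small intestine. S100a8, S100a9 and Il1b carried it, while the receptor genes had means of 5.52 and 5.41 (Csf3r) and of -6.12 and -6.58 (Cxcr2). That of 10 genes of small intestine enterocytes was 4.25 to 4.91 and 6.53 to 8.18, with all 10 well above background. Their part in these results was not tested. In CT26, Otc and Arg2 were not well above background on any array and were at least 75.8- and 24.7-fold lower than in colon, where replicate 3 had the highest values of both. Without that array the bounds were 42.1- and 14.6-fold. Aldh18a1, lower in adenomas, was 7.56-fold higher in CT26 than in colon (8.81-fold without colon replicate 3).

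**Figure D5:**
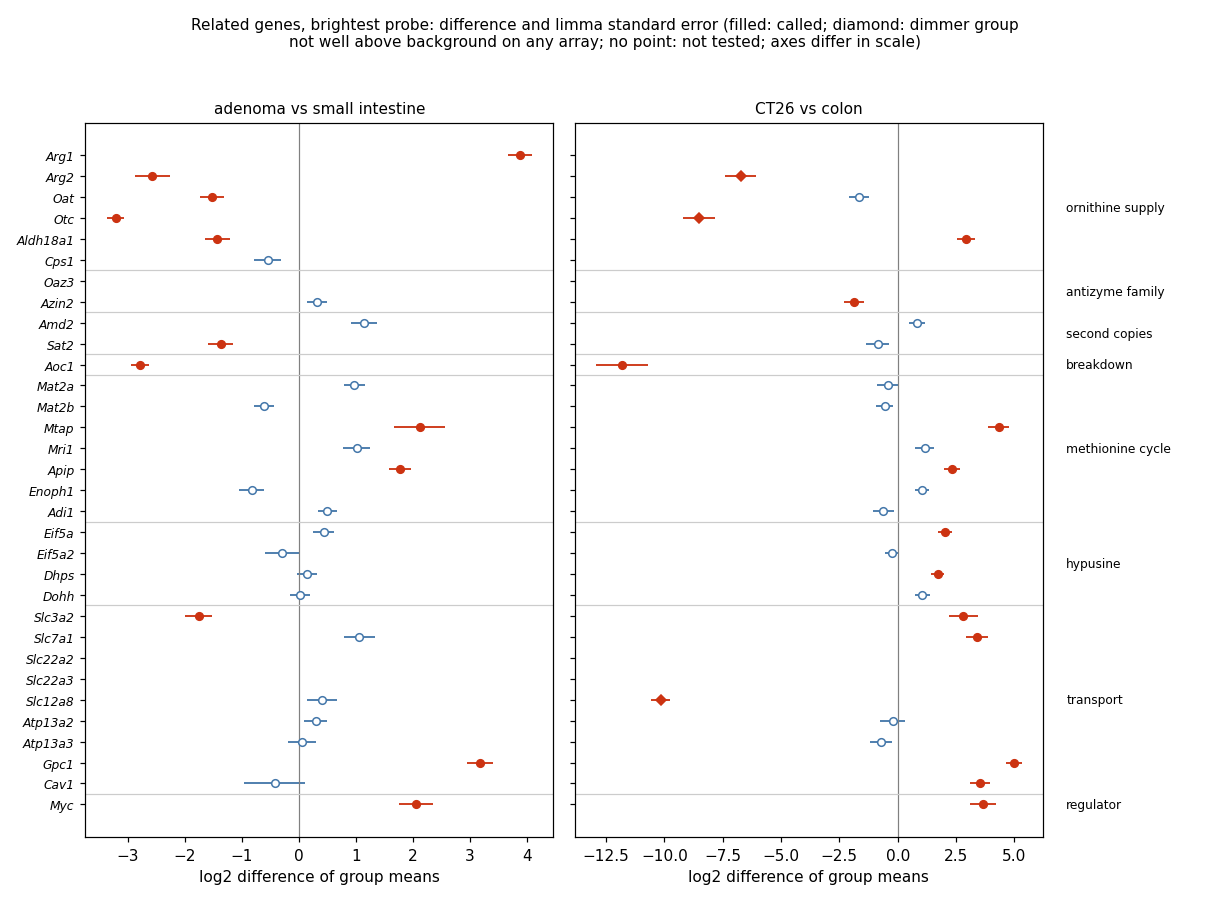
Log2 difference of group means (horizontal axis) with limma standard errors for the related genes, by role, in adenomas against small intestine (left) and CT26 against colon (right). Filled red symbols passed both thresholds, and diamonds mark genes not well above background on any array of the dimmer group. Aoc1, Arg2 and Otc lie to the left in both panels, and Myc, Gpc1, Mtap and Apip to the right. The role labelled ornithine supply also holds Otc, which uses ornithine.

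Diamine oxidase (Aoc1), which degrades putrescine outside the cell, was lower in both tumor comparisons. Its signal was 8.37, 8.49 and 8.41 in small intestine, 7.76 and 7.28 in adjacent tissue and 5.51, 5.56 and 5.85 in adenomas, in that order without overlap. It was 6.88-fold lower in adenomas than in small intestine (limma adjusted p = 9.13e-05) and 3.69-fold lower than in adjacent tissue (adjusted p = 0.00645). Colon had 7.05, 5.48 and 7.56, and CT26 -6.77, -2.41 and -6.13, where 1 of 3 arrays was well above background. The fitted log2 difference in CT26 was -11.80 (limma adjusted p = 0.000113), and -11.37 without colon replicate 3, and it includes the 2 arrays not well above background. Sat2, a relative of Sat1, was 2.59-fold lower in adenomas than in small intestine.

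Of the methylthioadenosine cycle, which recovers methionine from the by-product of spermidine and spermine synthesis, Mtap and Apip passed in both tumor comparisons. Mtap exceeded small intestine 4.33-fold in adenomas, where in small intestine 2 of 3 arrays were well above background, and was 20-fold higher in CT26 than in colon (15.9-fold without colon replicate 3). Apip exceeded small intestine 3.42-fold and adjacent tissue 2.57-fold in adenomas, and colon 5.08-fold in CT26 (4.26-fold without colon replicate 3). The translation factor Eif5a, which carries the spermidine-derived residue hypusine, and Dhps, the enzyme that starts that modification, were 4.05- and 3.29-fold higher in CT26 than in colon (4.31- and 3.53-fold without colon replicate 3). In adenomas 0 of 4 hypusine genes passed against small intestine, beside 21.9% of all probes called in either direction.

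Among genes linked to polyamine transport, the heparan sulfate proteoglycan Gpc1 in adenomas exceeded small intestine 9-fold, and it was 31.5-fold higher in CT26 than in colon (28.4-fold without colon replicate 3). Caveolin 1 (Cav1) was 11.7-fold higher in CT26 (9.13-fold). Slc12a8 was not well above background on any CT26 array and was at least 290-fold lower than in colon (at least 360-fold without colon replicate 3). Slc3a2, the heavy chain of several amino acid transporters, was 3.37-fold lower in adenomas than in small intestine. It was 7.06-fold higher in CT26 than in colon (11.7-fold without colon replicate 3), and the arginine and ornithine carrier Slc7a1 was 10.5-fold higher (13.3-fold), both named for CT26 after their values were seen. Azin2, of the antizyme family, was 3.62-fold lower in CT26 with 2 of 3 arrays well above background, and was not called without colon replicate 3.

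Myc, the known activator of Odc1, had -0.45, -0.93 and -1.60 in small intestine, 0.27 and 1.34 in adjacent tissue, 1.2, 0.85 and 1.14 in adenomas, 0.26, -0.02 and -0.99 in colon and 4.40, 2.48 and 3.32 in CT26. Adjacent tissue and adenomas lay above small intestine, and CT26 above all. In adenomas Myc exceeded small intestine 4.15-fold (log2 difference 2.05, standard error 0.299, limma adjusted p = 0.00176), where Odc1 differed by 0.02. It was 12.6-fold higher in CT26 than in colon (3.65, standard error 0.55, limma adjusted p = 0.00113) and 9.74-fold without colon replicate 3. The E-box CACGTG, a sequence that Myc can bind, was looked for in RefSeq promoter windows from 250 bases before to 50 after the start (GRCm38.p6, either strand, the motif being its own reverse complement). Of 9 windows of 7 set members it was in 1, that of Sms, beside 7.2% of 32851 windows of all genes. Srm and Azin1 had no window and were not searched, and neither was any sequence outside the windows.

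As a description over the 14 arrays, the genes most like Odc1 among 11790 named genes well above background on every array were Mtap7d1 (Pearson r = 0.985), 8430410A17Rik (0.981), Dpm2 (0.978), Tiprl (0.977) and Mobkl3 (0.977). For Sat1 they were Megf11 (0.944), Gm2099 (0.936), Pcdh1 (0.934), Fam83h (0.933) and Atp7a (0.932). The arrays share slides and groups and are not independent points.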

How the data were processed

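RNA was hybridized to SurePrint G3 Mouse 8x60K arrays (Agilent) in the one-color protocol. For each array the authors deposited the scanner output, in which the processed signal is an intensity after subtraction of the background. They also deposited log2 values normalized between arrays by the authors, with a method not given in the sources used here. That table's 28 flag and detection columns, and the authors' own fold changes and p-values, were not used.

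Control spots and outlier spots (103 to 206 per array) were left out, each array's 75th percentile was subtracted from the log2 intensities, and spots sharing a probe were averaged. Groups came from the labels. Fits were made in limma (version 3.58.1, R version 4.3.3, lmFit and eBayes) on the arrays of each pair of groups. A probe entered a fit if all arrays of either group had it well above background, and p-values were adjusted by Benjamini-Hochberg over all probes tested. Thresholds (log2 difference 1.2, adjusted p 0.01) follow the study's methods. The brightest probe, by its mean over all arrays, stood for a gene. On simulated arrays with 200 changed probes, the fit recovered 45% of changes of 2 (log2) and 90% of changes of 4 for adenoma against small intestine, 31% and 77% for adenoma against adjacent tissue, 27% and 72% for colon against small intestine, 4% and 65% for CT26 against colon, and 16% and 57% for adenoma against colon, with 0 false calls. In the data 36.4% of probes passed for CT26 against colon and 21.9% for adenoma against small intestine. The adjustment is less strict where more probes change, so the simulated shares do not give the recovery in those comparisons. In every comparison the simulation took the observed spread of each probe, from few arrays, as its true spread. The shares are therefore only a rough guide to power. The number of arrays limits the precision.

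The text names all set members, related genes called in a comparison (up to 4 a role, by size), Myc, and the 5 genes most like Odc1 and Sat1. The members and lists were chosen with earlier results of these data known. From the list of related genes 1 is not reported here and enters no count of that list. Lists of goblet cell, Paneth cell, B cell, colonocyte and smooth muscle genes were read too. Alternatives were normexp background correction (offset 50), quantile normalization, the authors' log2 table, no filter on dim probes, 1 fit of all groups, blocks for slide and replicate number, an adjusted p of 0.05 without a fold, other probes, and leaving out each array.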

Additional observations from a re-analysis of the deposited data

Results flagged for a closer look

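By limma's test of the difference, adenomas (against small intestine) and CT26 (against colon) departed from normal tissue differently for 4 polyamine genes. On the log2 scale the difference of differences was -2.348 for Odc1, -2.442 for Srm, -1.526 for Sms and 6.256 for Paox. Paox was higher in adenomas on 3 of 3 arrays and lower in CT26 on 3 of 3 arrays, each against every array of its normal tissue, while Odc1 and Sms exceeded normal tissue in CT26 without passing in adenomas.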

How the results depend on the processing

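The counts of polyamine genes that passed depended on the settings in the comparisons of adenomas and of CT26. At an adjusted p of at most 0.05 with no minimum fold, 5 genes passed between adenomas and small intestine and 3 between adenomas and adjacent tissue. Of all probes, 17534 of 29532 and 11324 of 29726 had an unadjusted limma p under 0.05 in these comparisons. For this and the settings below no share of all probes that passed is given, so the counts only describe how the calls move. Without a filter on dim probes the counts were 0 for adenomas against adjacent tissue, 3 for CT26 against colon and 0 for adenomas against colon. CT26 against colon gave 3 with quantile normalization and 3 with the authors' table, and adenomas against colon gave 0 with quantile normalization and 0 with slide as a block. Leaving out 1 array gave 2 to 4 genes between adenomas and small intestine, 0 to 1 between adenomas and adjacent tissue, 3 to 4 for CT26 against colon, 0 to 2 for adenomas against colon, 3 to 4 for the difference of the tumor comparisons, and 0 for each of the others. The cause was not tested, though leaving out an array also leaves fewer samples.

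When replicate numbers were fitted as a block, 3 genes passed for adenomas against small intestine, 0 against adjacent tissue and 0 against colon, with 3 for CT26 against colon, and the numbers in the titles as a block gave 0 between adenomas and adjacent tissue. The deviations of same-numbered arrays had correlations from -0.222 to 0.302. With 2 or 3 arrays per group and no reference for such correlations, they do not settle whether the numbers pair samples.

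Directions turned only for differences that had not passed. Odc1 between adenomas and small intestine was -0.142 as the mean of its probes and -0.147 to 0.266 without single arrays. Between adenomas and adjacent tissue, Oaz1 was 0.022 with normexp, 0.005 with quantile normalization, 0.027 in the authors' table, 0.022 with slide, 0.059 with replicate and 0.026 with title numbers as a block, and -0.123 to 0.059 without single arrays. Azin1 there was 0.024 with the title block, 0.106 as the mean of its probes and -0.172 to 0.024 without single arrays, and Sat1 -0.061 to 0.353. Between colon and small intestine, Smox was 0.104 with quantile normalization, 0.097 in the authors' table, 0.133 with slide as a block and -0.342 to 0.087 without single arrays, and Sat1 0.021 with quantile normalization and -0.648 to 0.131. Between CT26 and colon, Oaz1 was -0.363 with quantile normalization, -0.277 in the authors' table and -0.047 to 0.371 without single arrays, and Azin1 -0.646 to 0.139. Between adenomas and colon, Oaz1 was 0.019 with slide as a block and -0.281 to 0.085 without single arrays, Sat1 -0.767 to 0.012 and Azin1 -0.525 to 0.241. Of the values of single genes, 354 of 386 under other settings and 233 of 272 without 1 array kept direction and side of the thresholds. Of the others, 37 no longer passed, 2 newly passed and 32 changed sign.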

Other observations

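Marker lists that no polyamine result was set against had these values. The mean scaled log2 signal of 5 goblet cell genes was 8.48 to 8.76 in small intestine, 6.82 to 7.25 in adenomas, 8.19 to 8.64 in colon and -6.25 to -5.96 in CT26. That of 5 Paneth cell genes was 7.33 to 8.14 in small intestine, 5.79 to 7.96 in adjacent tissue, 4.90 to 5.73 in adenomas and -0.71 to 4.97 in colon. For 8 smooth muscle genes it was 2.76 to 4.54 in small intestine, 2.10 to 2.37 in adenomas and 4.43 to 5.06 in colon. For 8 colonocyte genes it was 2.49 to 5.39 in colon and 0.91 to 1.67 in small intestine. For 5 B cell genes it was -0.14 to 2.70 in colon and -3.82 to -3.03 in small intestine.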
